A study of Mus musculus with 8 samples.

Results

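The 9 genes described here are the metallothionein genes Mt1 and Mt2 and 7 genes that belong to the glucocorticoid response: Gadd45b, Lpin1, Tsc22d3, Fkbp5, Sgk1, Zbtb16 and Nr3c1, the last of which encodes the glucocorticoid receptor itself. Their probes were found by matching the accession that the array files give for each probe to a RefSeq symbol. This gave 11 of the 55681 distinct probes, 2 each for Lpin1 and Nr3c1 and 1 for every other gene. All 9 genes were among the 14578 genes tested, of 20284 genes with a named probe.

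The series compared livers of C57BL/6J mice lacking Btg2 (TIS21, PC3), an antiproliferative gene of the BTG/TOB family, with wild-type livers. The TIS21-knockout adult and TIS21-wild type adult samples came from males aged 10 weeks that had gone without food for 20 h. The TIS21-knockout fetal and TIS21-wild type fetal samples were pools of E13.5 livers (embryonic day 13.5) of both sexes. Each of these 4 RNA samples was hybridised to 2 arrays, so every p-value below measures array error only and compares 4 RNA samples, not genotypes. The sources used here do not give the number of adult mice behind a sample or the part of Btg2 that was removed. No fed adult was analysed here, so fasting is common to both adult groups, and the hormone itself was not measured.

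Glucocorticoids are adrenal steroid hormones that rise in fasting. They bind a receptor held ready by HSP90 chaperones in the cytoplasm, and the hormone-bound receptor enters the nucleus and switches genes on or off; in fasted liver these include genes for making glucose and handling fat. Metallothioneins are small, cysteine-rich proteins that bind zinc and copper, and their genes are switched on both by zinc, through the metal-sensing factor MTF1, and by glucocorticoids and inflammatory signals.

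All 8 arrays lay on 1 slide, with each group in its own column of the slide, so group and slide column cannot be told apart. The knockout adult arrays had a 75th percentile of 169 to 171 in processed signal, the wild-type adult arrays of 132 to 133, the knockout fetal arrays of 277 to 278 and the wild-type fetal arrays of 324 to 333. Across genes, which are not independent replicates, the arrays of a pair correlated with r between 0.992 and 0.997. Btg2 was not well above background on any of the 4 knockout arrays, with signals of 4.54 to 8.02, and stood at 149 and 158 on the wild-type adult and 2071 and 2079.9 on the wild-type fetal arrays. Of 11 hepatocyte markers, all were well above background on every adult array and 10 or 11 on every fetal array, and all 5 measured hepatoblast markers were so on every fetal array. The presence of the labelled tissue was thus borne out by its markers. All 3 tested skeletal muscle markers were also well above background on every fetal array. Their summed signal, in multiples of the array's 75th percentile, was 2.81 to 2.90 in knockout and 4.26 to 4.41 in wild-type fetal samples. Whether the fetal samples held tissue other than liver was not tested. A level, below, is a log2 processed signal relative to the 75th percentile of its own array, where it would be 0. A probe's level can be set against the same probe on other arrays, not against another probe. A gene was called where limma's adjusted p was under 0.05 and the difference at least 2-fold.

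The promoters of Mt1 and Mt2 are printed because metal response elements, the short sites at which MTF1 binds, are the feature by which these genes are best known. They are shown 5′ to 3′ on the gene's strand, from 250 bases before to 50 after the start site, from RefSeq on GRCm38.p6. Capitals mark the 7-base cores TGCACNC and TGCGCNC on either strand; no 2 cores overlapped. Mt1 lies at chr8:94178839-94179138 (plus strand) and Mt2 at chr8:94172368-94172667 (plus strand).
Mt1: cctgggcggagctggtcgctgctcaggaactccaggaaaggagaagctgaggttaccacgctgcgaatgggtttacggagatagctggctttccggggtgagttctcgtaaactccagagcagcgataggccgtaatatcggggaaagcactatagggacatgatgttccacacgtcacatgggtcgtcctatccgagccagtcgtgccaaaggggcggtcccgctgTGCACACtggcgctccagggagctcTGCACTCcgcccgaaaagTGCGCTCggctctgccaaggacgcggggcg
Mt2: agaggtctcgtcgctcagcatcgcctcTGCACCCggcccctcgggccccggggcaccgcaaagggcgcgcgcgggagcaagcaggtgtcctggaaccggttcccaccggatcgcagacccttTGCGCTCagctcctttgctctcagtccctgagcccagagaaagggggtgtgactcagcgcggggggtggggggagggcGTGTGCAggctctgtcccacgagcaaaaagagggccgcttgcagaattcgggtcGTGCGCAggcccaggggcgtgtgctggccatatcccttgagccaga
The Mt1 window held 3 cores, beginning at positions -23, 3 and 21 from the start site, all on the gene's strand. The Mt2 window held 4 cores, at -223 and -128 on the gene's strand and at -50 and 5 on the opposite strand. Of 32851 promoter windows of this length, 12.6% held TGCACNC at least once, 15.4% held TGCGCNC, 25.7% held either, 1.97% held at least 3 of them and 0.518% at least 4. A match is a description of the letters and does not show that a factor binds there.

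In fasted adult liver both metallothionein genes fell in the knockout sample, Mt1 by 4.62-fold and Mt2 by 5.99-fold. Mt1 had levels of 6.03 and 6.13 on the knockout adult arrays, against 8.30 and 8.27 on the wild-type adult arrays. Mt2 stood at 5.42 and 5.49 on the knockout adult arrays, against 8.05 and 8.03 on the wild-type adult arrays. Neither gene's groups overlapped, which was so for 77.4% of all genes tested, and the gap between groups was many times the gap between duplicates. Mt1 differed by -2.21 ± 0.06 on the log2 scale (limma's SE, adjusted p = 3.0e-07) and Mt2 by -2.58 ± 0.06 (adjusted p = 1.9e-07, limma). Before any scaling the processed signal of Mt1 was 11135 and 11891 in knockout adults, against 42031 and 40891 in wild-type adults, and that of Mt2 was 7327 and 7592, against 35274 and 34477. The direction therefore stood in the unscaled signals too.

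Gadd45b, which encodes a small stress-induced protein that acts on MAP kinase signalling and is induced early in liver regeneration, also fell in adult liver. Its levels were -0.95 and -0.89 on the knockout adult arrays, against 1.99 and 1.96 on the wild-type adult arrays. The 7.45-fold fall was a log2 difference of -2.90 ± 0.06 (limma, adjusted p = 9.7e-08). The processed signals behind these levels were 88.3 and 91.4 in knockout adults, against 531 and 513 in wild-type adults, all well above background. Under normexp background correction the differences were -2.05 for Gadd45b, -2.09 for Mt1 and -2.51 for Mt2, so the order of the 3 falls depends on that step.

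Lpin1 moved the other way. It encodes lipin 1, the phosphatidate phosphatase that makes diacylglycerol for triglyceride synthesis and that also acts in the nucleus as a coactivator of fasting genes. Its brighter probe, A_55_P2083481, had levels of 5.56 and 5.55 on the knockout adult arrays, against 4.46 and 4.39 on the wild-type adult arrays. It rose by 1.12 ± 0.05 (2.18-fold, adjusted p = 1.9e-06, limma). The dimmer probe, A_55_P2083474, had levels of 0.66 and 0.56 on the knockout adult arrays, against -1.17 and -1.18 on the wild-type adult arrays. Fitted over the 28815 probes tested, it rose by 1.78 ± 0.19 (3.44-fold, adjusted p = 2.5e-04, limma), so both probes of the gene gave the same direction.

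**Figure D1:**
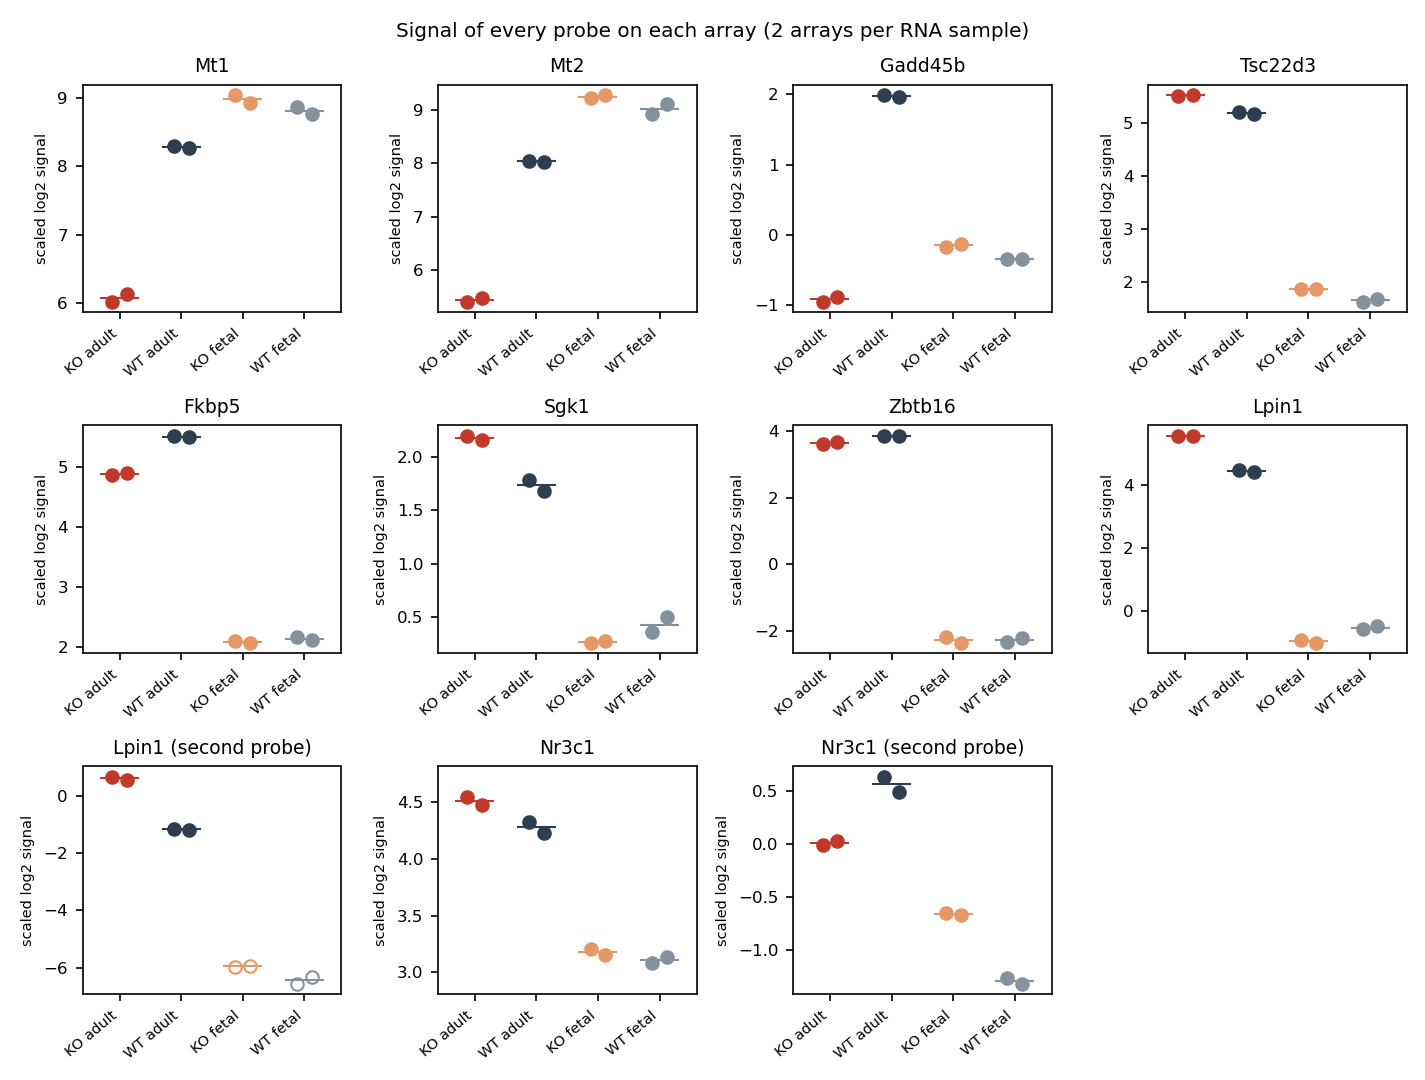
Level of every probe of the 9 genes on each of the 8 arrays, 1 panel per probe, in log2 processed signal relative to the array's 75th percentile; points are arrays, bars are group means, and open points are arrays on which the probe was not well above background; the second probe of a gene is its dimmer one. Each panel has its own axis, so heights compare arrays and not probes; the knockout adult arrays lie lowest for Mt1, Mt2 and Gadd45b and highest for Lpin1.

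The 5 other genes were not called in adult liver: each differed by less than 2-fold, although each had an adjusted p under 0.05, as 55.6% of all genes tested did. Tsc22d3 encodes GILZ, a leucine zipper protein through which glucocorticoids restrain inflammation. Its levels were 5.52 and 5.53 on the knockout adult arrays, against 5.20 and 5.17 on the wild-type adult arrays, a difference of 0.34 ± 0.03 (adjusted p = 4.3e-05, limma). Fkbp5 encodes FKBP51, the HSP90 co-chaperone that lowers the receptor's affinity for hormone and is itself induced by it. Its levels were 4.86 and 4.89 in knockout adults, against 5.51 and 5.49 in wild-type adults, a difference of -0.62 ± 0.03 (1.54-fold, adjusted p = 2.1e-06, limma). These 2 widely used reporters of receptor activity thus had differences of opposite sign.

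Sgk1, a kinase that glucocorticoids and mineralocorticoids induce and that regulates ion transport, had levels of 2.20 and 2.17 in knockout adults, against 1.78 and 1.69 in wild-type adults. The difference was 0.45 ± 0.06 (adjusted p = 4.8e-04, limma). Zbtb16, which encodes the zinc finger transcription factor PLZF, had levels of 3.61 and 3.68 in knockout adults, against 3.86 on both wild-type adult arrays, a difference of -0.21 ± 0.07 (adjusted p = 0.039, limma). With slide row as a block its adjusted p was 0.056.

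Nr3c1, the receptor gene, gave opposite signs at its 2 probes, so no direction is given for it in adult liver. The brighter probe, A_55_P1967885, had levels of 4.54 and 4.47 in knockout adults, against 4.32 and 4.23 in wild-type adults, a difference of 0.23 ± 0.04 (adjusted p = 0.0025, limma). The dimmer probe, A_52_P254174, had levels of -0.02 and 0.02 in knockout adults, against 0.63 and 0.49 in wild-type adults. It differed by -0.55 ± 0.08 (adjusted p = 8.1e-04, limma, over all probes tested). Neither difference reached 2-fold, and what the 2 probes detect of the gene's transcripts was not tested.

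Taking the 9 genes together, 1 was called higher and 3 lower in the knockout adult sample, where 4.95% of all genes tested were called higher and 2.52% lower (7.47% in all). Their median difference was -0.21, with a range of -2.90 to 1.12, beside a median of -0.10 over all genes. Over the scalings the median of all genes lay between -0.10 and 0.09. Mt1 ran from -2.21 to -2.02, Mt2 from -2.58 to -2.39, Gadd45b from -2.90 to -2.05 and Lpin1 from 1.12 to 1.31. The 4 directions thus held under each scaling tried. The 9 genes were chosen with earlier results of these data known, so the share called is a description of these genes.

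Macrophage markers moved in the same comparison. All 11 measured macrophage markers rose, with a median difference of 2.95 and a range of 1.84 to 4.43. Their summed level, in multiples of the array's 75th percentile, was 363 to 371 on the knockout adult arrays, against 62.5 to 65.7 on the wild-type adult arrays. None of 11 hepatocyte markers was called, and their summed level was 6312 to 6325 in knockout adults, against 7165 to 7276 in wild-type adults. Some markers of other sets were called too. Higher were 3 of 8 stellate and fibroblast, 2 of 8 neutrophil and 1 of 4 T and NK cell markers. Lower was 1 of 5 hepatoblast markers. No erythroid, endothelial, B cell, cholangiocyte or skeletal muscle marker was called. In whole liver RNA, fewer cells of a type and less RNA per cell cannot be told apart. The part of the macrophage and other marker differences in the results for the 9 genes was not tested.

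**Figure D2:**
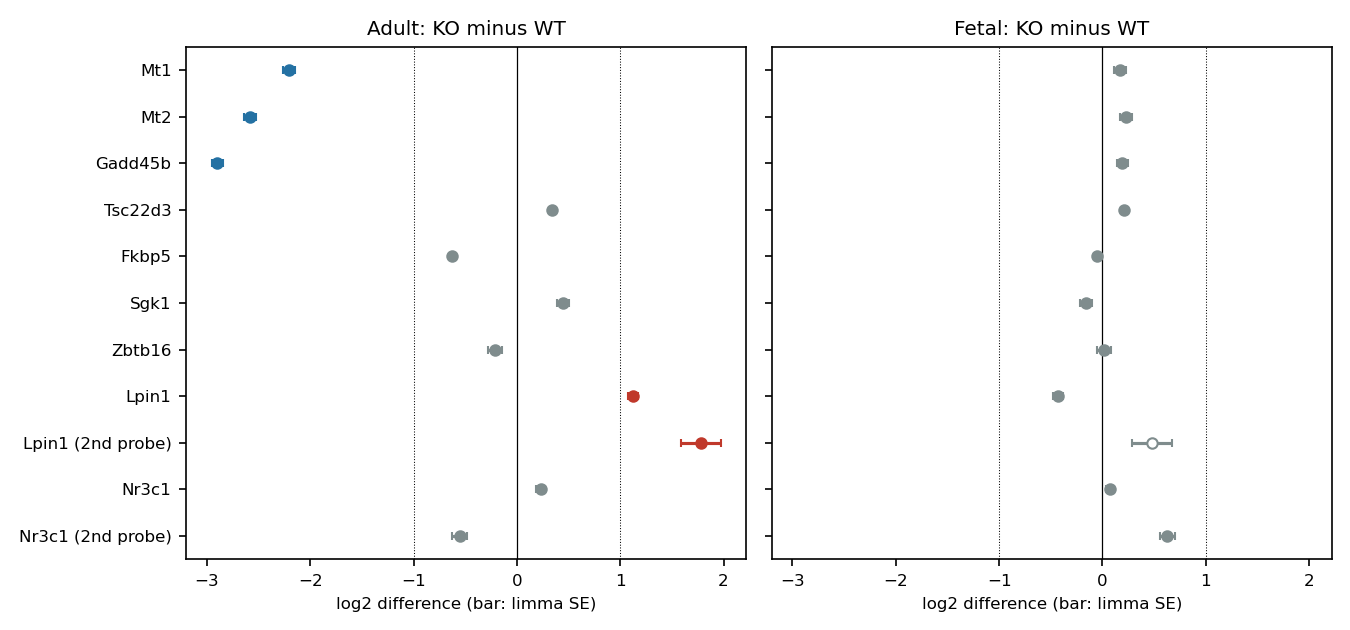
Knockout minus wild type for every probe of the 9 genes, adult and fetal samples shown separately; the axis is the log2 difference, bars are limma's standard error from the fit over probes, the open point is a probe not well above background in either group, and dotted lines mark 2-fold. Mt1, Mt2 and Gadd45b lie beyond the lower line and both Lpin1 probes beyond the upper line in adult liver, while no fetal difference crosses either line.

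In fetal liver none of the 9 genes was called between knockout and wild type, where 1.93% of all genes tested were (0.501% higher, 1.43% lower). Of the 9, 3 had an adjusted p under 0.05 by limma, beside 22.5% of all genes. Mt1 stood at 9.04 and 8.93 on the knockout fetal arrays, against 8.87 and 8.76 on the wild-type fetal arrays, and differed by 0.17 ± 0.06 (adjusted p = 0.074, limma). Mt2 stood at 9.21 and 9.27 on the knockout fetal arrays, against 8.92 and 9.10 on the wild-type fetal arrays, and differed by 0.23 ± 0.06 (adjusted p = 0.037, limma). The scaled levels of the fetal groups did not overlap for either gene, which was so for 71.3% of all genes tested. Both signs were opposite to the adult ones. Before scaling the processed signals did overlap. Those of Mt1 were 146542 and 135418 in knockout fetal liver, against 155438 and 140665 in wild-type fetal liver. For Mt2 they were 164011 and 171705, against 161586 and 177970. The unscaled means were lower in knockout, at 140980 against 148052 for Mt1 and 167858 against 169778 for Mt2. These 2 small fetal differences thus took their sign from the scaling. Gadd45b had levels of -0.17 and -0.13 in knockout fetal liver, against -0.35 and -0.34 in wild-type fetal liver. The difference was 0.19 ± 0.06 (adjusted p = 0.053, limma). Its unscaled signals went the other way, at 247 and 254 in knockout fetal liver, against 262 and 256 in wild-type fetal liver.

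Among the others, Lpin1 had levels of -0.92 and -1.01 on the knockout fetal arrays, against -0.58 and -0.49 on the wild-type fetal arrays, a difference of -0.43 ± 0.05 (1.35-fold, adjusted p = 0.0015, limma). Its dimmer probe was not well above background on any fetal array, with signals of 3.57 to 4.57. Tsc22d3 differed by 0.20 ± 0.03 (adjusted p = 0.0032, limma), from levels of 1.86 and 1.87 in knockout fetal liver, against 1.63 and 1.69 in wild-type fetal liver. The receptor and its co-chaperone had small differences: Nr3c1, at its brighter probe, differed by 0.07 ± 0.04 and Fkbp5 by -0.05 ± 0.03. The dimmer Nr3c1 probe differed by 0.63 ± 0.08, with levels of -0.65 and -0.67 in knockout fetal liver, against -1.26 and -1.32 in wild-type fetal liver. Sgk1 differed by -0.16 ± 0.06 and Zbtb16 by 0.02 ± 0.07, and the sign of the Zbtb16 value turned when the first array of either fetal group was left out.

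Whether the knockout difference itself depended on stage was tested with an interaction term, the adult difference minus the fetal one. The same 4 genes were called, 3 lower and 1 higher, where 9.73% of all genes tested were called (6.02% higher, 3.72% lower). The term was -2.38 ± 0.08 for Mt1 (adjusted p = 2.2e-06, limma), -2.81 ± 0.09 for Mt2 (adjusted p = 1.5e-06, limma), -3.09 ± 0.08 for Gadd45b (adjusted p = 8.0e-07, limma) and 1.56 ± 0.07 for Lpin1 (adjusted p = 4.6e-06, limma). The metallothionein and Gadd45b differences were thus larger in the adult than in the fetal samples by this test. It was -0.57 ± 0.04 for Fkbp5, 0.61 ± 0.08 for Sgk1, -0.22 ± 0.10 for Zbtb16, 0.16 ± 0.06 for Nr3c1 and 0.13 ± 0.04 for Tsc22d3, none of them called. In all, 7 of the 9 had an adjusted p under 0.05 for this term, beside 51.9% of all genes. The dimmer Lpin1 probe had a term of 1.30 ± 0.27 and the dimmer Nr3c1 probe one of -1.18 ± 0.11, both called. The 11 macrophage markers were also all called higher in this term, with a median of 3.01, and their part in it was not tested.

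In the wild-type samples 7 of the 9 genes were higher in the adult and none lower, where 27.3% of all genes were called higher and 27.7% lower (55.0% in all). Zbtb16 showed the largest difference, with levels of 3.86 on both adult wild-type arrays, against -2.35 and -2.23 on the fetal wild-type arrays, a rise of 6.15 ± 0.07 (71.0-fold); 92.6% of all genes likewise had no overlap between these groups. Lpin1 rose by 4.96 ± 0.05 (31.1-fold), and its dimmer probe was at least 9.62-fold higher, measured against a bound because it was not well above background in fetal liver. Tsc22d3 rose by 3.53 ± 0.03, Fkbp5 by 3.36 ± 0.03 and Gadd45b by 2.32 ± 0.06. These 5 rises kept their calls under each scaling tried, over which Zbtb16 ran from 4.83 to 6.15, Lpin1 from 4.29 to 4.96, Tsc22d3 from 2.90 to 3.53, Fkbp5 from 2.74 to 3.36 and Gadd45b from 1.69 to 2.32.

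Sgk1 rose by 1.31 ± 0.06 and Nr3c1 by 1.17 ± 0.04 in adult wild type, but these calls depended on the scaling. Over the scalings Sgk1 ran from 0.68 to 1.31 and Nr3c1 from 0.54 to 1.17. Mt1 differed by -0.53 ± 0.06 and Mt2 by -0.98 ± 0.06 in the same comparison, neither called. For Mt2 the missing call was the exception: it was called lower under all 5 other scalings, at -1.66 to -1.41, and at -1.06 without the first wild-type fetal array. Mt1 was called lower under 3 of the 5, at -1.15 to -1.14. Among these, quantile normalization and the deposited value table gave nearly the same value (-1.14 for each), so they do not count as separate settings. Over all scalings Mt1 ran from -1.15 to -0.53 and Mt2 from -1.66 to -0.98. The metallothionein levels of adult wild type were thus below those of fetal wild type under each scaling.

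In the knockout samples 6 genes were higher in the adult and 2, Mt1 and Mt2, were lower, where 25.8% of all genes were called higher and 27.6% lower (53.3% in all). Mt1 fell by 2.91 ± 0.06 (7.51-fold) and Mt2 fell by 3.79 ± 0.06 (13.8-fold) in adult knockout relative to fetal knockout liver, and neither had overlapping groups, as for 94.2% of all genes. Lpin1 rose by 6.51 ± 0.05 (91.4-fold), Zbtb16 by 5.93 ± 0.07 (60.8-fold), Tsc22d3 by 3.66 ± 0.03, Fkbp5 by 2.79 ± 0.03, Sgk1 by 1.92 ± 0.06 and Nr3c1 by 1.32 ± 0.04. Over the scalings Zbtb16 ran from 4.68 to 5.93 and Lpin1 from 5.74 to 6.51. Gadd45b was not called, at -0.77 ± 0.06, but was called lower under median scaling (-1.25) and when scaled to the probes detected on all arrays (-1.03). The Nr3c1 call was lost under median scaling (0.85) and with its probes averaged (0.99). Both stage comparisons had adjusted p-values under 0.05 by limma for all 9 genes, as 87.0% and 86.4% of all genes did. The dimmer Lpin1 probe was at least 23.6-fold higher in adult knockout. The dimmer Nr3c1 probe rose by 1.85 ± 0.08 between the wild-type stages and differed by 0.66 ± 0.08 between the knockout stages, the second of these not called.

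**Figure D3:**
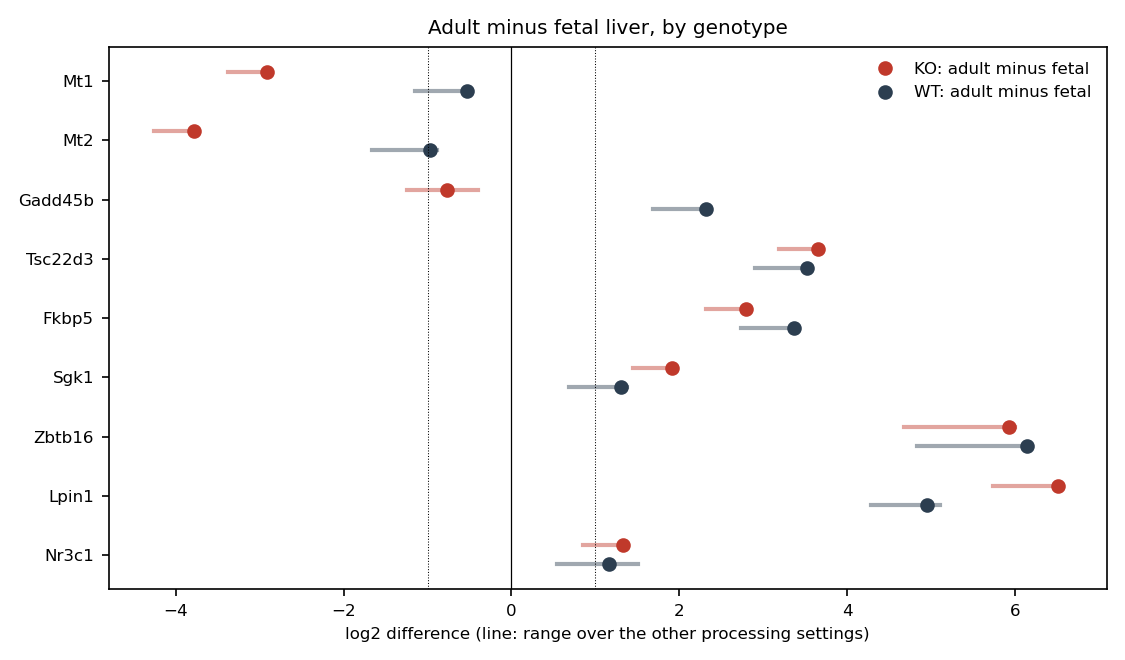
Adult minus fetal difference of the 9 genes in the knockout and in the wild-type samples, on the log2 scale; points are the values scaled to the 75th percentile, horizontal lines span the values under the other processing settings, and dotted lines mark 2-fold. Zbtb16 and Lpin1 lie farthest to the right, and Mt1 and Mt2 lie on the left, farther so in knockout than in wild type.

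Age, fasting, sex and pooling all differ between the adult and fetal samples and cannot be told apart. All 11 hepatocyte markers were called higher and all 5 hepatoblast markers lower in adult than in fetal liver of either genotype. In either genotype 8 of 9 erythroid markers were called lower and 1 higher, and 7 of 8 neutrophil markers were called lower. The median erythroid difference, -5.07 in wild type and -5.92 in knockout, was a larger fall than that of the erythroid sum given below. The summed level of the neutrophil set was 5.63 to 5.82 in knockout adults and 4.81 to 4.89 in wild-type adults, against 438 to 444 in knockout and 343 to 348 in wild-type fetal liver. The endothelial sum was 102 to 109 in knockout adults and 81.0 to 82.3 in wild-type adults, against 26.1 to 26.9 over the fetal arrays, and that of T and NK cells was 28.5 in knockout adults and 44.1 to 45.9 in wild-type adults, against 6.42 to 7.65 over the fetal arrays. The erythroid sum was 879 to 900 in knockout adults and 990 to 995 in wild-type adults, against 2156 to 2160 in knockout and 1764 to 1881 in wild-type fetal liver. The hepatocyte sums were 6312 to 7276 over the adult arrays, against 680 to 707 over the fetal arrays. The 11 macrophage markers differed between genotypes here. In wild type 2 were called higher and 6 lower in the adult (median -1.01), and in knockout 10 higher and 0 lower (median 1.53). Their sum was 62.5 to 65.7 in adult and 96.8 in fetal wild type, and 363 to 371 in adult and 120 to 121 in fetal knockout. Of 8 stellate and fibroblast markers 7 were called lower and 1 higher in the adult of either genotype. The part of all these markers in the stage differences of the 9 genes was not tested.

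The order of the levels differed between the metallothioneins and the rest. For Mt1 and Mt2 both fetal samples stood highest, with no call between them, adult wild type came next and adult knockout was lowest; whether adult and fetal wild type were called apart depended on the scaling, as given above. For Gadd45b adult wild type stood alone at the top and adult knockout was lowest, with the fetal samples between and not called apart from each other. For Lpin1 adult knockout was highest, then adult wild type, and both fetal samples were far below. Tsc22d3, Fkbp5, Sgk1 and Zbtb16 each had both adult samples above both fetal samples, with no call between genotypes at either stage.

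Of 34 other glucocorticoid-responsive genes, all tested, 2 rose and 5 fell in the knockout adult sample, and 27 were not called. Of all genes, 4.95% were called higher and 2.52% lower. The 27 include Ampd3 and Foxo3, which were not well above background on any adult array, so their missing calls say little. The median difference of the 34 was -0.34, beside -0.10 over all genes. The rises were Rgs2, a regulator of G protein signalling, at 1.90 ± 0.04 (3.74-fold) and Arrdc2, an arrestin domain protein, at 1.13 ± 0.05. The falls were led by Sult1e1, the oestrogen sulfotransferase, at -3.18 ± 0.37 (9.04-fold; -1.86 under normexp) and Pdk4, the kinase that shuts down pyruvate dehydrogenase in fasting, at -1.60 ± 0.07 (3.03-fold). Mfsd2a, a lysophospholipid transporter, fell by 1.45 ± 0.39, and it lost its call when either knockout array or the second wild-type array was left out. Igfbp1, a binding protein for insulin-like growth factors, fell by 1.09 ± 0.05 and Por, the cytochrome P450 reductase, fell by 1.06 ± 0.05. Por lay outside the rule for named genes and is given to complete the 5; both calls were lost under every other scaling, and that of Por also without the second knockout array.

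Among the 27 not called, and chosen after their values were seen, Per1 (period 1, a clock gene) differed by -0.62 ± 0.04, Klf9 by -0.48 ± 0.08, Tat (tyrosine aminotransferase) by -0.37 ± 0.08 and Dusp1 (a MAP kinase phosphatase) by -0.00 ± 0.08. In fetal liver 2 of the 34 genes were called, both lower in knockout, and this count ran from 0 to 4 over the alternatives. Of all genes tested, 1.43% were called lower there. The 2 genes of the list were Pck1, the gluconeogenic enzyme PEPCK, at least 1.26-fold, and Mfsd2a, at least 1.39-fold. Neither was well above background in the knockout fetal sample. Both calls were lost under normexp (-0.072 for Pck1 and -0.20 for Mfsd2a) and without the first wild-type fetal array (-0.74 and -1.59). Mfsd2a stood at -2.48 without the first and -1.10 without the second knockout fetal array. Without the second wild-type fetal array 4 genes of the list were called lower. In wild type, 22 of the 34 were higher and 5 lower in the adult than in the fetal sample, with a median of 2.87, where 27.3% of all genes were higher and 27.7% lower; in knockout, 21 were higher and 4 lower, where 25.8% and 27.6% of all genes were.

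**Figure D4:**
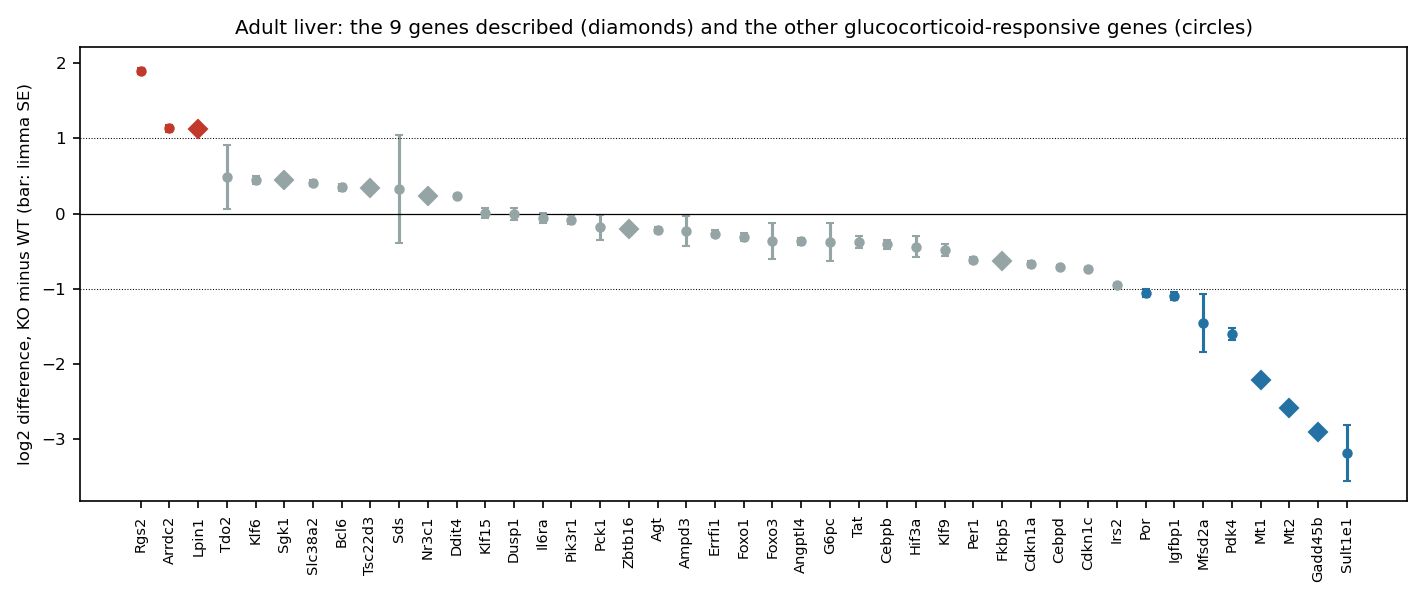
Knockout minus wild type in adult liver for the 9 genes (diamonds) and the 34 other glucocorticoid-responsive genes (circles), ordered by the log2 difference; red marks genes called higher, blue genes called lower and grey genes not called, with dotted lines at 2-fold. Most of the list lies between the lines, and Sult1e1, Gadd45b, Mt2 and Mt1 lie lowest.

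Of 26 genes for metal response and zinc transport, 1 rose and none fell in adult knockout liver, with a median of 0.14. Of all genes tested, 4.95% were called higher and 2.52% lower there, so the count was near that share. In the list 2 rose under quantile normalization and in the deposited value table, and 3 under median scaling and with scaling to the probes detected on all arrays. The riser was Hmox1, the heme-degrading oxygenase, at 1.02 ± 0.03 (2.03-fold, adjusted p = 5.8e-07, limma), and without the second wild-type array it stood at 0.99, short of 2-fold. Values of 5 others, singled out after they were seen and none of them called, follow. Mtf1, the metal sensor, differed by -0.13 ± 0.04. Slc30a1, a zinc exporter that MTF1 induces, differed by 0.25 ± 0.06 and Slc39a14, a zinc importer, by -0.25 ± 0.04. Mt3 and Mt4, the other metallothionein genes, differed by -0.67 ± 0.06 and 0.13 ± 0.22. In fetal liver none of the 26 was called, where 1.93% of all genes tested were. Between adult and fetal wild type, 7 were higher and 7 lower in the adult, a share near the 27.3% and 27.7% of all genes.

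For receptor sites, the half-site TGTTCT and its palindrome were searched on both strands in 14 RefSeq promoter windows of 7 of the 9 genes. In the palindrome the inverted copy AGAACA comes first and any 3 bases lie between it and TGTTCT. No window for Zbtb16 or Nr3c1 was used here, whether or not they have one. The half-site occurred in Tsc22d3 (1 of 3 windows), Lpin1 (1 of 1) and Sgk1 (3 of 6), and in 18.97% of all windows. No half-site was found in the windows of Mt1, Mt2, Gadd45b or Fkbp5. The palindrome occurred in 3 of 32851 windows, 1 of them belonging to Sgk1, beginning at position -189 from that start site. It is shown because it is the whole site in a gene long known as a target of the receptor, on GRCm38.p6 at chr10:21993686-21993730 (plus strand), with the site's paired arms in capitals. These arms also count as 2 of the 3 half-sites in that window.
Sgk1: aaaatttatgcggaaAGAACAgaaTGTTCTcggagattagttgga
The Sgk1 differences given above, 0.45 in adult liver and -0.16 in fetal liver, were not called. Apart from the metallothioneins, the only member window with a metal core was 1 of Sgk1, which held TGCGCNC once.

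**Figure D5:**
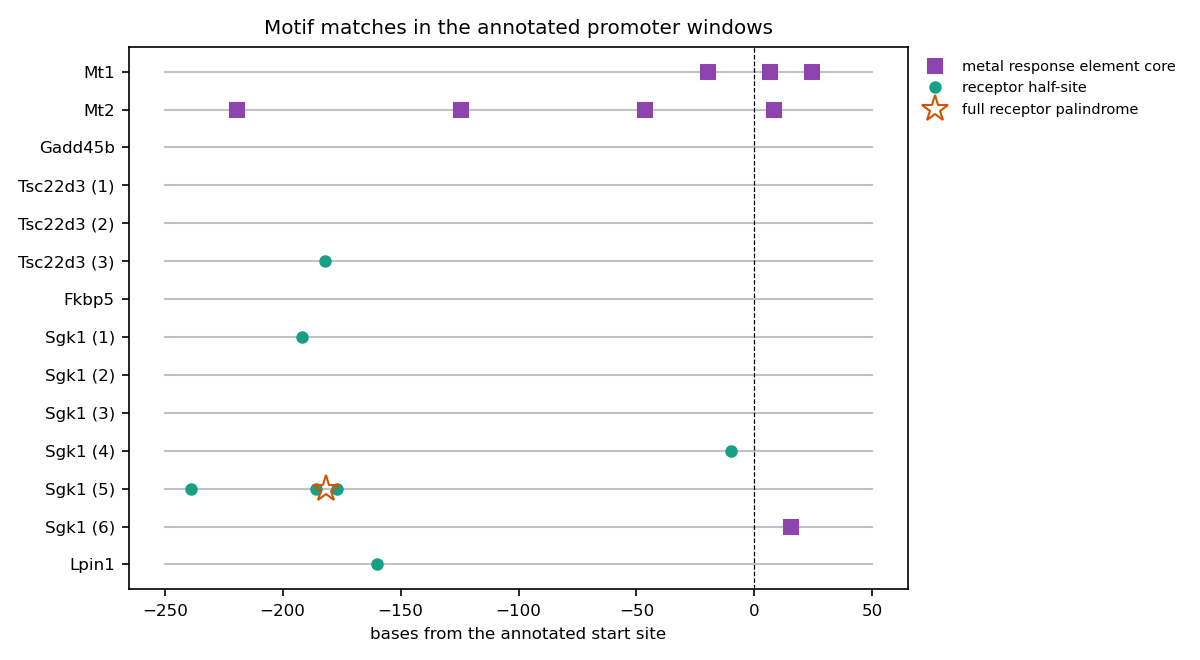
Positions of the metal cores, receptor half-sites and the receptor palindrome in the RefSeq promoter windows of the members, in bases from the start site. Each row is a window and marks stand at the middle of a match. Metal cores cluster in the rows of Mt1 and Mt2, and the single palindrome lies in a window of Sgk1.

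The genes with the pattern most like each member were found by the Euclidean distance between log2 group means, each centred on its own average over the 4 RNA samples, among 10606 other genes well above background on all 8 arrays. Nearest to Mt1 were Cbfa2t3 (distance 0.39), Vldlr (0.46) and Slc41a3 (0.50). Nearest to Mt2 were Slc41a3 (0.66), Mt1 (0.72) and Cbfa2t3 (0.81), while Mt2 was the 5th nearest to Mt1. The metallothionein genes were thus close to each other but were not each other's nearest. Socs2 (0.46), Acot2 (0.57) and Fam71e1 (0.82) lay nearest to Gadd45b. For Lpin1 the nearest were Nudt7 (0.44), Abcb11 (0.46) and Slc3a1 (0.46).

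The other members had closer neighbours, at distances of 0.057 to 0.18. Tsc22d3 was nearest to Afm, Sfxn5 and Stbd1, Fkbp5 to Ccs and Mttp, among others, and Sgk1 to Slc25a1, Fbxw9 and Tbc1d8b. Zbtb16 was nearest to Igf1, Aldh1l1 and Amy1, and Nr3c1, at its brighter probe, to Pex2, Rabep2 and Pisd. No member other than Mt1 was among another member's 3 nearest.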

How the data were processed

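Total RNA of 4 liver samples was hybridised to 8 single-colour Agilent arrays (Cy3), 2 per sample. The deposited scanner files hold, per the file headers, the processed signal, an intensity already background-corrected by Agilent Feature Extraction 10.7.3.1, with other columns of flags per spot. The authors' value table, a linear intensity for which the sources used here name no preparation, served as an alternative only. Its median was 18.1 and its 75th percentile 184.6 on every array, and its results nearly repeated those of quantile normalization.

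Control spots and outlier-flagged spots (92 to 188 per array) were left out; no spot was saturated. Log2 signals were set relative to each array's 75th percentile, and spots of a probe were averaged. Names came from the RefSeq table of GRCm38.p6, with 26762 of 55681 probes named. A gene was tested if some group had it well above background on both of its arrays, by its probe with the highest mean. All 8 arrays entered 1 fit of 4 groups (R 4.3.3, limma 3.58.1, eBayes with trend), adjusted by Benjamini and Hochberg over 14578 genes, or over 28815 probes where a probe is named. The fit was tested on simulated data. "At least" folds set the bright group against a bound: on each dim array, the probe's signal or the lowest signal well above background, whichever was higher, averaged.

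One gene near Fkbp5 in pattern is not reported here. The 9 genes, the gene lists and the alternatives were chosen with earlier results of these data known. List genes were named by rule where called in the adult comparison, at most 4 each way. Slide row was checked as a pairing: duplicate differences correlated at -0.14 to 0.08 between groups, so rows did not pair arrays. The number of arrays limits the precision.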

Additional observations from a re-analysis of the deposited data

Results flagged for a closer look

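For 4 genes the knockout difference in adult liver differed from that in fetal liver by the interaction term itself, in limma over all 14578 genes tested. The term was -3.09 for Gadd45b (adjusted p = 8.0e-07), -2.81 for Mt2 (adjusted p = 1.5e-06), -2.38 for Mt1 (adjusted p = 2.2e-06) and 1.56 for Lpin1 (adjusted p = 4.6e-06). Each kept its call under all 18 alternatives, some of which cannot change the log2 difference itself. Animals were not replicated, so the term compares 4 RNA samples. The macrophage markers gave a median term of 3.01 in the same test, and their part in these 4 values was not tested.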

How the results depend on the processing

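Of 846 recomputed values for the 9 genes, 818 kept direction and side of the threshold, 10 fell below it, 11 passed it and 7 changed sign. Many of the 818 could not have changed direction. Settings that alter only the error estimate, or leave out an array outside the comparison, give the same log2 difference. The 818 is therefore not a measure of robustness, and the scalings are the fuller check. In adult liver the same number of members, 4, was called under every alternative, in fetal liver 0 and in the interaction 4; the counts ran from 6 to 8 (7 as reported) for adult against fetal wild type and from 7 to 9 (8 as reported) for knockout. Over the 19 alternatives adult Mt1 lay between -2.26 and -2.02, Mt2 between -2.62 and -2.39, Gadd45b between -2.93 and -2.05 and Lpin1 between 1.09 and 1.45. The sign changed for Nr3c1 in fetal liver under normexp (-0.014), for Zbtb16 in fetal liver when scaled to probes detected on all arrays (-0.021) and without the first knockout (-0.062) or first wild-type fetal array (-0.045), with -0.062 to 0.094 when any 1 array was left out. Averaging a gene's probes turned Nr3c1 in adult liver (-0.16) and in the interaction (-0.51), and Lpin1 in fetal liver (0.024). Between adult and fetal wild type, Mt2 stood at -1.06 without the first wild-type fetal array. It was called lower under all 5 other scalings and Mt1 under 3 of them, where the deposited value table nearly repeats quantile normalization. Sgk1 was uncalled under normexp (0.96), with scaling to detected probes (0.87) and under median scaling (0.68). Nr3c1 was uncalled under all 5 other scalings, and stood at 0.54 under median scaling (adjusted p = 0.057, limma). Between adult and fetal knockout, Gadd45b was called lower under median scaling (-1.25) and with scaling to detected probes (-1.03), and Nr3c1 lost its call under median scaling (0.85) and with its probes averaged (0.99).

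Over all genes, 1089 were called in adult liver, but 347 under normexp (230 higher, 117 lower) and 501 when genes had to be above background on all 8 arrays, which tested fewer genes. The fetal count of 281 became 67 and 26, and the interaction count of 1419 became 471 and 693 under the same settings. With the stricter filter the stage counts were 5331 for wild type, against 8020, and 5140 for knockout, against 7773. Leaving out 1 array gave 1064 to 1448 in adult liver, 193 to 303 in fetal liver, 1314 to 1735 for the interaction, 7899 to 8134 for wild-type stage and 7662 to 7823 for knockout stage. The share called higher moved from 66.2% to as much as 78.5% in adult liver with the scaling, from 61.8% to between 54.1% and 78.0% in the interaction, from 26.0% to between 23.2% and 41.8% in fetal liver, from 49.7% to as little as 30.4% for wild-type stage and from 48.3% to as little as 32.8% for knockout stage. With slide row as a replicate block, 1087 genes and the same 4 members were called in adult liver, and no member's call changed in any comparison. Depth is not defined for arrays; dim probes such as the second of Lpin1 in fetal liver give only bounds. Array error is the only error measured, and litter, animal and slide column were not replicated.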

Other observations

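The genes that serve the receptor, and the relatives of the members, were also measured. For comparison, 7.47% of all genes tested were called between genotypes in adult liver and 1.93% in fetal liver. Of 19 tested genes of the receptor machinery (chaperones, coregulators, steroid-converting enzymes and the hormone carrier) none was called in adult liver, with a median of -0.16; 1 was called without the second knockout or without the first wild-type adult array. Chosen after their values were seen, Hsp90ab1 and Hsp90aa1, the HSP90 chaperones, differed by -0.78 ± 0.04 and -0.74 ± 0.05 and Crebbp, a coactivator, by -0.99 ± 0.05. Hsd11b1, which regenerates active hormone in liver, differed by 0.34 ± 0.03, and Serpina6, the hormone's carrier in blood, by 0.61 ± 0.04. None of these 19 was called in fetal liver, while 1 was called higher without the first and 1 lower without the second wild-type fetal array. Of 15 tested relatives none was called at either stage; in adult liver Gadd45a differed by 0.06 ± 0.07, Gadd45g by -0.57 ± 0.02 and Lpin2 by -0.35 ± 0.04. Between adult and fetal wild type Hsd11b1 rose by 7.66 and Serpina6 fell by 2.53, while Gadd45a fell by 3.62 and Gadd45g rose by 2.38.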
